A study of Homo sapiens with 7 samples.

Results

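The FOXA genes encode a small family of forkhead transcription factors, and their 3 members, FOXA1, FOXA2 and FOXA3, were examined in chromatin profiles of T-47D, an estrogen receptor-positive luminal breast cancer cell line. The members were chosen by name, and for each the peaks within the gene and 100 kb on either side were taken from 6 peak lists. The 3 windows held 118 of the 285703 peaks analysed, 44 around FOXA1, 31 around FOXA2 and 43 around FOXA3. The lists came from chromatin immunoprecipitation followed by sequencing (ChIP-seq) with antibodies to H3K27ac, H3K4me2, H3K36me3, H3K27me3, H2A.Z and H3K9me3. Each antibody had 1 library of T-47D cells grown with serum in DMEM, the labels name no treatment, and an input library was not analysed here. A list gives the position and width of each peak but no height, so neither the strength of a mark nor a spread between replicates could be measured, and no test was possible.

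As background, FOXA proteins bind their DNA site on nucleosomes and are called pioneer factors because other factors can follow them there. FOXA1 is the family member known for luminal breast cells, where it opens sites for the estrogen receptor. FOXA2 acts in definitive endoderm, the floor plate, liver and lung, and FOXA3 acts mainly in liver and gut. H3K27ac lies at active promoters and enhancers, H3K4me2 at promoters and enhancers whether active or poised, H3K36me3 along transcribed gene bodies, and H3K27me3 at genes silenced by Polycomb. H2A.Z is a histone variant of promoters and enhancers, and H3K9me3 marks heterochromatin. H3K27ac overlapped 0.046% of all peaks under the label H2A.Z and 30.4% of those under the label H3K9me3. Both run against that background, so these lists are called here by their labels only. Peaks from a bulk culture do not tell how many cells or gene copies carry a mark, and gene copy number was not corrected.

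In hg19 coordinates, FOXA1 is at chr14:38058757-38064325 (5.57 kb), FOXA2 at chr20:22561642-22565101 (3.46 kb) and FOXA3 at chr19:46367518-46377055 (9.54 kb). FOXA1 and FOXA2 are transcribed from the minus strand, so their starts are at the higher coordinate, and FOXA3 is transcribed from the plus strand. In the gene order of RefSeq, FOXA1 lies between the protein-coding genes MIPOL1 and TTC6, with TTC6 on the upstream side. FOXA2 lies between the long non-coding RNA genes LINC00261 and LNCNEF. FOXA3 lies between SYMPK, upstream, and IRF2BP1, downstream. An hg19 annotation of these neighbours was not used here, so a peak away from a member gene was given its distance and was not assigned to a gene.

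The 3 loci differed in which marks they carried. The FOXA1 gene lay entirely under a single 16.9 kb H3K27ac peak, and its window held no H3K27me3 peak. The FOXA2 window held 15 H3K27me3 peaks, none of them on the gene, and no H3K27ac peak. Of its 3 H3K4me2 peaks, only that at the gene start lay on the gene. The FOXA3 window held 12 H3K27ac, 15 H3K4me2 and 9 H3K36me3 peaks, but no peak of any of the 6 lists overlapped the FOXA3 gene itself.

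**Figure D1:**
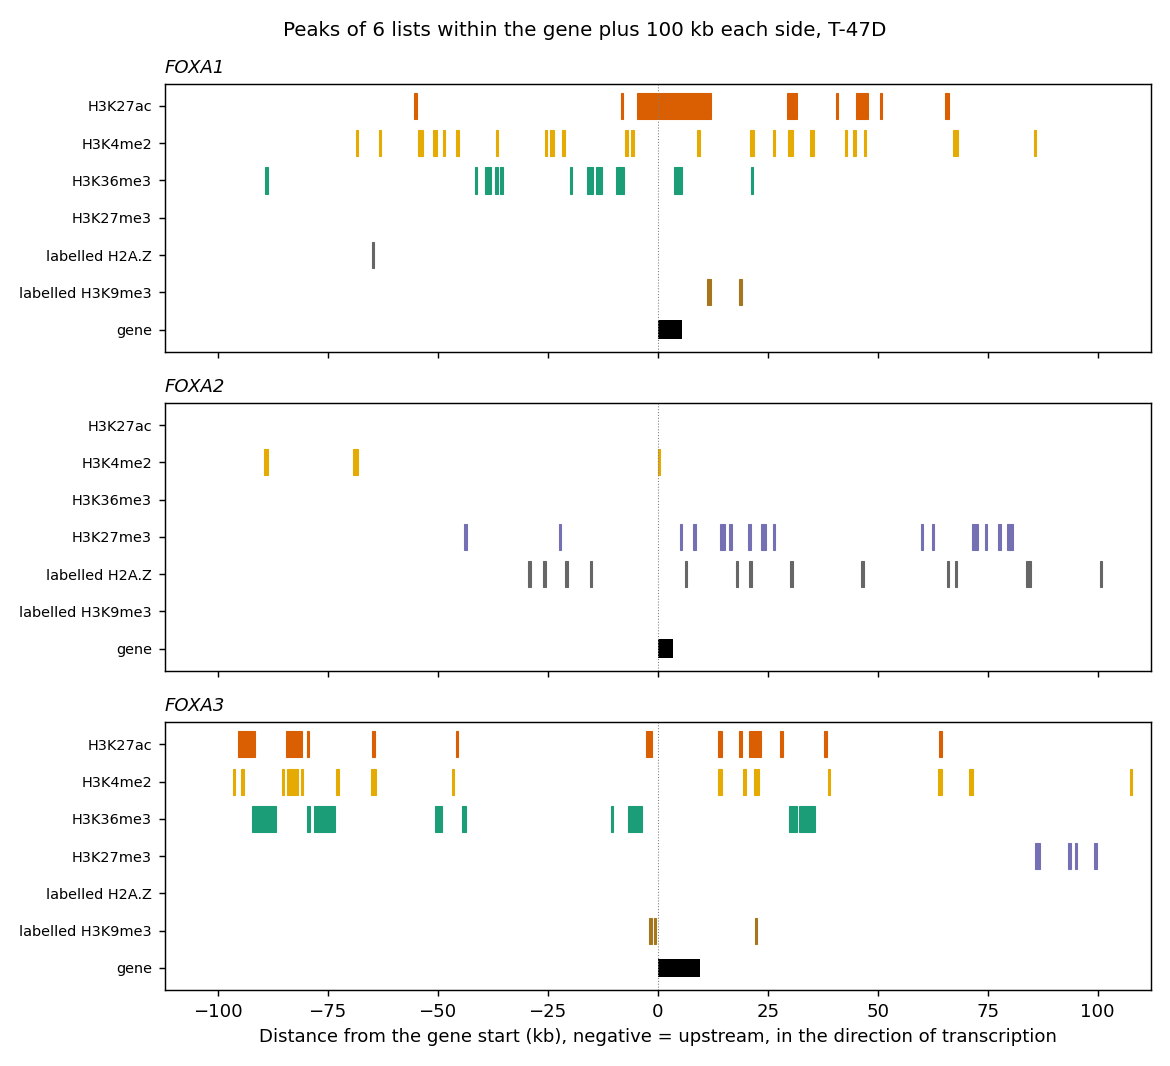
Peaks of the 6 lists (rows) in the windows of FOXA1, FOXA2 and FOXA3 by distance from the gene start in kb, drawn in the direction of transcription, with the gene in black and a thin outline that keeps narrow peaks visible. The 16.9 kb H3K27ac peak covers FOXA1, the 15 H3K27me3 peaks lie around FOXA2 and mostly downstream of it, and the FOXA3 gene is free of peaks.

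The promoter sequences are shown for the start that H3K27ac covers (FOXA1) and for the start that it only approaches (FOXA3). Both come from RefSeq on GRCh38.p14, read 5′ to 3′ in the direction of transcription over the 250 bases before the gene start. FOXA1 is chr14:37595250-37595499 on the minus strand and FOXA3 is chr19:45864076-45864325 on the plus strand of that build. These coordinates are not comparable with the hg19 positions of the peaks, and the RefSeq start may differ from the hg19 start used for distances. The table matched 2 of the 3 members, and FOXA2 was not among them. Capitals mark the matches to 4 motifs searched on both strands, namely the forkhead core sites TGTTTAC and TGTTTGC, the TATA box TATAAA and the CCAAT box. No 2 matches overlapped.
FOXA1: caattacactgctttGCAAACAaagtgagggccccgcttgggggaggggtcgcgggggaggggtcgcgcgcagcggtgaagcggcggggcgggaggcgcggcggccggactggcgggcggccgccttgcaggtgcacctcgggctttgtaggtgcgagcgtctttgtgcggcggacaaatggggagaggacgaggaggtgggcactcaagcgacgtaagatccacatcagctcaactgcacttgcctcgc
FOXA3: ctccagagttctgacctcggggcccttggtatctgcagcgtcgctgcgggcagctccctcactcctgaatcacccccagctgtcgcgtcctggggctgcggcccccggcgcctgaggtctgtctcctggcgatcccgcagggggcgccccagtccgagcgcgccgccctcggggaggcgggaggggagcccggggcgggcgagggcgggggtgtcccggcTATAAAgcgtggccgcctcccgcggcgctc

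The FOXA1 promoter held 1 forkhead core, TGTTTGC read on the opposite strand, 235 to 229 bases before the start. This motif was present in 3.23% of the 35116 RefSeq promoter stretches of the same length, and TGTTTAC, which neither promoter held, in 2.98%. The FOXA3 promoter held a TATA box 30 to 25 bases before the start, a motif found in 10.7% of promoters. Neither held CCAAT, which 32.0% of promoters did. Both were rich in CG dinucleotides, with 26 in FOXA1 and 28 in FOXA3 against a median of 11 over all promoters (quartiles 3 to 23). These matches describe the letters and are not evidence of binding.

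At FOXA1, the H3K27ac peak over the gene ran from chr14:38052126-38069034. It began 4.71 kb upstream of the gene start, covered all 5569 bp of the gene, and ended 6.63 kb beyond the gene's 3′ end. By width it ranked 18 among 31453 H3K27ac peaks, so 0.0572% were at least as wide, and it was 25.9 times the list's median of 653 bp. On chromosome 14 it ranked 2 among 1378. The peak reached further past the 3′ end than past the start. Its genome-wide rank counts some regions more than once, because some of the wider peaks overlap one another, as chr6:151963580-151990112 and chr6:151964285-151992130 do.

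Inside this peak the other lists occupied separate places. An H3K36me3 peak of 1911 bp (chr14:38058750-38060660) covered the 3′ part of FOXA1, 34.2% of the gene, and its nearer edge was 3.67 kb downstream of the start. The only H3K4me2 peak inside it (chr14:38054771-38055271, 501 bp) lay past the 3′ end of the gene. A peak of the list labelled H3K9me3 (chr14:38052244-38053140, 897 bp) lay further on, at the downstream edge. No H3K4me2 peak overlapped the FOXA1 gene or came within 5 kb of its start, where H3K27ac covered 97.1% of the sequence. The nearest H3K4me2 peaks were 5.47 kb upstream (chr14:38069791-38070291), just outside the H3K27ac peak, and 9.05 kb downstream, which left a stretch of 14.5 kb around the start without one.

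**Figure D2:**
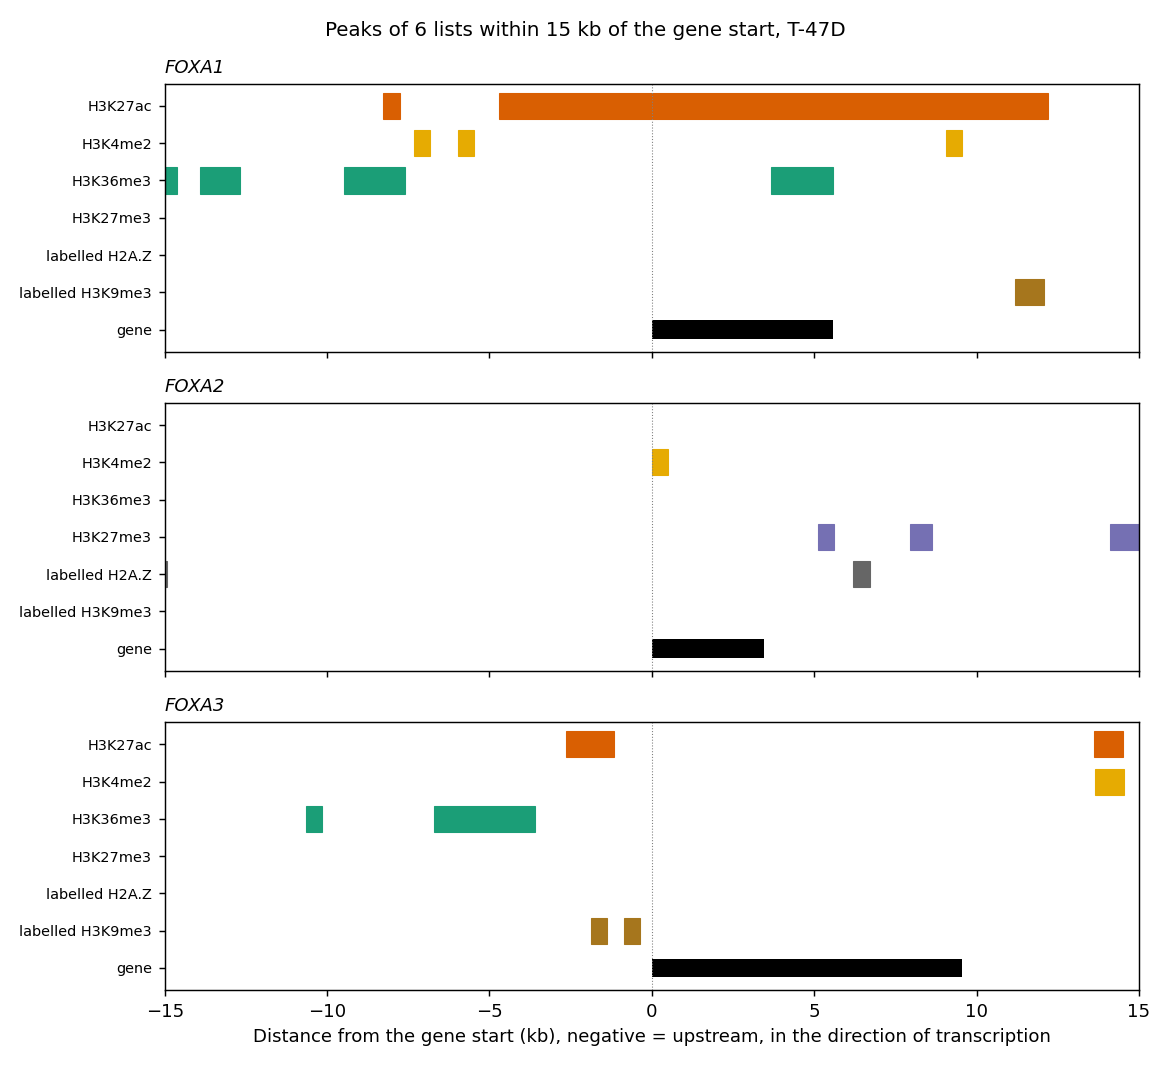
Peaks of the 6 lists within 15 kb of the starts of FOXA1, FOXA2 and FOXA3, by distance from the start in kb in the direction of transcription, with peaks and genes cut at the plot's edges. The H3K27ac peak spans the whole FOXA1 gene and H3K36me3 its 3′ part, an H3K4me2 peak lies at the FOXA2 start, and the nearest peaks to the FOXA3 start are upstream of it.

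Little H3K4me2 under a wide H3K27ac peak was uncommon. H3K4me2 covered 2.96% of the FOXA1 peak, whereas the median over the 80 H3K27ac peaks of 10 kb or more was 17.5% (quartiles 11.8 to 32.0%). Only 3.75% of them, 3 peaks with FOXA1's included, had as small a share. H3K36me3 went the other way, at 11.3% of the FOXA1 peak against a median of 2.08% and an upper quartile of 10.9%. The list labelled H3K9me3 covered 5.30% of it, and 66 of the 80 wide peaks held none of that list. H3K27me3 and the list labelled H2A.Z had no peak in any of the 80. Some of the 80 overlap one another, so they are fewer than 80 separate regions.

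**Figure D3:**
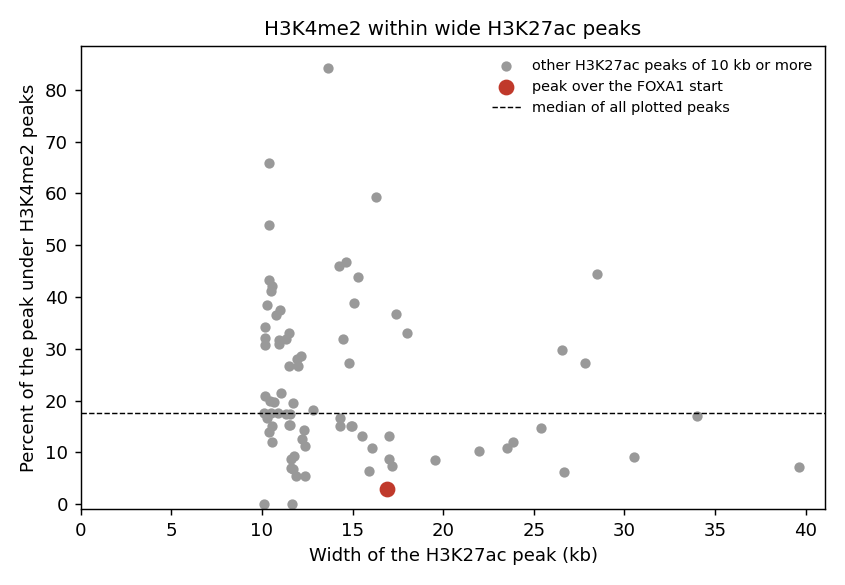
Each point is 1 of the 80 H3K27ac peaks of 10 kb or more, by its width in kb and the percent of it under H3K4me2 peaks, with the median of 17.5% dashed. The FOXA1 peak (red) has 2.96% and lies lower than all but 2 of the others.

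Over its whole window, FOXA1 held 8 H3K27ac peaks that covered 24827 bp, or 12.1%. Among 13451 windows of the same length tiled along the genome, 1.07% had at least this much, and 1.4% of those on chromosome 14. The wide peak made up 68.1% of it. Without that peak 3.85% of the window was left. The next widest H3K27ac peaks, of 2687 bp (chr14:38016620-38019306) and 2251 bp (chr14:38032707-38034957), both lay downstream, at 45.0 kb and 29.4 kb from the start, and each overlapped an H3K4me2 peak.

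FOXA1 also had the most H3K4me2 peaks of the 3 windows. There were 22 (95% exact Poisson interval 13.8 to 33.3, counting error only), over 7.25% of the window, a level reached by 4.07% of windows and by 7.46% of those on chromosome 14. They were short, 13 of them at 501 bp, which is the commonest width in every list. The widest measured 1145 bp (chr14:38033637-38034781), 1121 bp (chr14:38117703-38118823) and 1083 bp (chr14:37996147-37997229). They stood on both sides of the gene, 12 within 100 kb upstream of the start and 10 downstream. Most were apart from H3K27ac, since 3 of the 22 overlapped it, or 13.6% (95% Wilson interval 4.75 to 33.3%, which covers counting error only), and 25.7% of all H3K4me2 peaks did, a share within that interval. Of the 36 merged regions in the window, 17 consisted of H3K4me2 alone (47.2%, against 17.5% of all regions). These shares are of the regions of every list. Regions of H3K27me3 alone, 23.1% of all, were absent here, and those of the list labelled H2A.Z alone, 17.7% of all, numbered 1. The shares therefore do not show that H3K4me2 stood alone more often than elsewhere.

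H3K36me3 around FOXA1 lay mainly upstream, on the side of TTC6. Of its 11 peaks, 9 were upstream of the start and covered 8.76% of those 100 kb, and 2 were downstream and covered 2.41%. The widest was the peak on FOXA1 itself, followed by upstream peaks of 1884 bp (chr14:38071921-38073804) and 1454 bp (chr14:38078946-38080399). In all 5.44% of the window was covered, a level that 21.6% of windows reached. Peaks were not assigned to TTC6.

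Among the remaining lists at FOXA1, H3K27me3 had no peak in the window, where 46.3% of windows and 67.4% of those on chromosome 14 had at least 1. A count of 0 allows up to 3.69 peaks at the 95% level. The nearest H3K27me3 peaks were 366.6 kb upstream (chr14:38430939-38432390) and 435.6 kb downstream (chr14:37628126-37628771), an interval of 802.2 kb without one. This was not particular to FOXA1, since the interval around the FOXA3 start was longer, at 1414.6 kb. No background was computed for such intervals. The list labelled H2A.Z had 1 peak of 501 bp, 64.4 kb upstream (chr14:38128707-38129207), and 49% of windows, or 77.4% of those on chromosome 14, held at least as much of it. The list labelled H3K9me3 had 2 peaks, both downstream, that of 897 bp in the H3K27ac peak and one of 501 bp (chr14:38045228-38045728), over 0.680% of the window, a level met by 26.9% of windows and by 55.2% of those on chromosome 14. One of these 2 overlapped H3K27ac, against the 30.4% of all its peaks given above.

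The FOXA2 window held H3K27me3 peaks, mostly downstream of the gene, whereas the FOXA1 window held none. H3K27me3 had 15 peaks (Poisson interval 8.40 to 24.7) over 5.44% of the window. This level was reached by 10.3% of 13588 windows of the same length and by 27.4% of those on chromosome 20. The peaks were narrow, with a median of 501 bp, and the widest measured 1504 bp (chr20:22492245-22493748). On the downstream side, toward LINC00261, 13 of them covered 10.1% of 100 kb, and on the upstream side 2 covered 1.0%. They did not reach the gene. The nearest were 5.12 kb downstream of the start (chr20:22559486-22559986), past the 3′ end, and 21.9 kb upstream (chr20:22586956-22587456), which left 26.97 kb around the start without H3K27me3.

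The list labelled H2A.Z occupied the same window, with 13 peaks over 3.69%. At least as much was found in 10.3% of windows and in 26.4% of those on chromosome 20. Its widest peak measured 1003 bp (chr20:22480331-22481333), and its nearest to the start were 6.21 kb downstream (chr20:22558394-22558894) and 14.9 kb upstream (chr20:22580017-22580517). Peaks of the 2 lists were interspersed. As to overlap, 1 of the 15 H3K27me3 peaks overlapped the list labelled H2A.Z (6.67%, Wilson interval 1.19 to 29.8%, which includes the 11.8% of all H3K27me3 peaks that did), and that merged region was chr20:22543734-22544475.

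The FOXA2 start was marked by H3K4me2 and by no other list. A peak of 501 bp (chr20:22564597-22565097) ended 4 bp inside the gene start and was the only peak of any list on the FOXA2 gene, of which it covered 14.5%. It overlapped neither H3K27me3 nor the list labelled H2A.Z. The other 2 H3K4me2 peaks lay 68.0 kb upstream (chr20:22633105-22634277, 1173 bp, the widest) and 88.6 kb upstream (chr20:22653708-22654473, 766 bp). Together the 3 covered 1.20% of the window, a level that 46.9% of windows reached, so the total was ordinary.

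No peak of H3K27ac, H3K36me3 or the list labelled H3K9me3 lay in the FOXA2 window. Windows with at least 1 peak made up 53.5% for H3K27ac, 41.6% for H3K36me3 and 58.7% for the list labelled H3K9me3, so each absence alone is common. On chromosome 20 the shares were 61.3% for H3K27ac, 54.1% for H3K36me3 and 82.5% for the list labelled H3K9me3, so that the last absence was less common there. The nearest peaks of H3K27ac and H3K36me3 were further away than that of the list labelled H3K9me3, and no background was computed for such distances. The nearest H3K27ac peak was 768.8 kb away (chr20:23333854-23334911), within an interval of 1690.9 kb without one, and the nearest H3K36me3 peak was 768.7 kb away (chr20:23333828-23336788). The nearest peak of the list labelled H3K9me3 was 107.4 kb upstream (chr20:22672547-22673047).

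At FOXA3 the marks stood around the gene and not on it. The nearest peak to the start belonged to the list labelled H3K9me3 (chr19:46366647-46367147, 501 bp) and ended 371 bp upstream. The nearest H3K27ac peak (chr19:46364868-46366346, 1479 bp) ended 1.17 kb upstream and held a second peak of the list labelled H3K9me3 (chr19:46365639-46366139). An H3K36me3 peak of 3108 bp (chr19:46360806-46363913) followed 3.61 kb upstream, on the side of SYMPK. Within 5 kb of the start H3K27ac covered 14.8%, against 97.1% at FOXA1 and none at FOXA2. H3K4me2 had no peak there, and its nearest was 13.7 kb downstream (chr19:46381175-46382056), past the 3′ end, where it coincided with an H3K27ac peak (chr19:46381129-46382038).

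The FOXA3 window as a whole was dense in H3K27ac and H3K4me2 peaks, most of them away from the gene. H3K27ac had 12 peaks (Poisson interval 6.20 to 21.0) over 7.85%, a level reached by 3.23% of 13198 windows of the same length but by 17% of those on chromosome 19. H3K4me2 had 15 peaks over 5.77%, a level reached by 7.24% of windows and by 12.5% of those on chromosome 19. The widest of each, an H3K27ac peak of 3915 bp (chr19:46272114-46276028) and an H3K4me2 peak of 2518 bp (chr19:46283210-46285727), were 91.5 kb and 81.8 kb upstream of the start. Of the H3K4me2 peaks 7 of 15 overlapped H3K27ac (46.7%, Wilson interval 24.8 to 69.9%). The interval overlaps that of the 3 of 22 at FOXA1 and includes the share over all H3K4me2 peaks.

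H3K36me3 covered 10.6% of the FOXA3 window, the largest share of the 3 loci, with 9 peaks against 11 at FOXA1. This level was met by 13.1% of all windows but by 47.9% of those on chromosome 19, so for its chromosome it was ordinary. The widest peak, of 5398 bp (chr19:46275376-46280773), was 86.7 kb upstream. H3K27me3 had 4 peaks over 1.29%, which 25.1% of windows reached, and all 4 were 85.8 kb or more downstream of the start, the widest of 1057 bp being also the nearest (chr19:46453313-46454369). The list labelled H3K9me3 had 3 peaks of 501 bp over 0.717%, a level met by 26% of windows. Of the 3, 2 overlapped H3K27ac, the second near the start and one 22.02 kb downstream (chr19:46389534-46390034). The peak nearest the start overlapped none. The Wilson interval for 2 of 3, 20.8 to 93.9%, includes the 30.4% of all peaks of that list that overlapped H3K27ac. The list labelled H2A.Z had none, where 49% of windows had at least 1, and its nearest peak was 194.9 kb downstream (chr19:46562378-46562878).

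**Figure D4:**
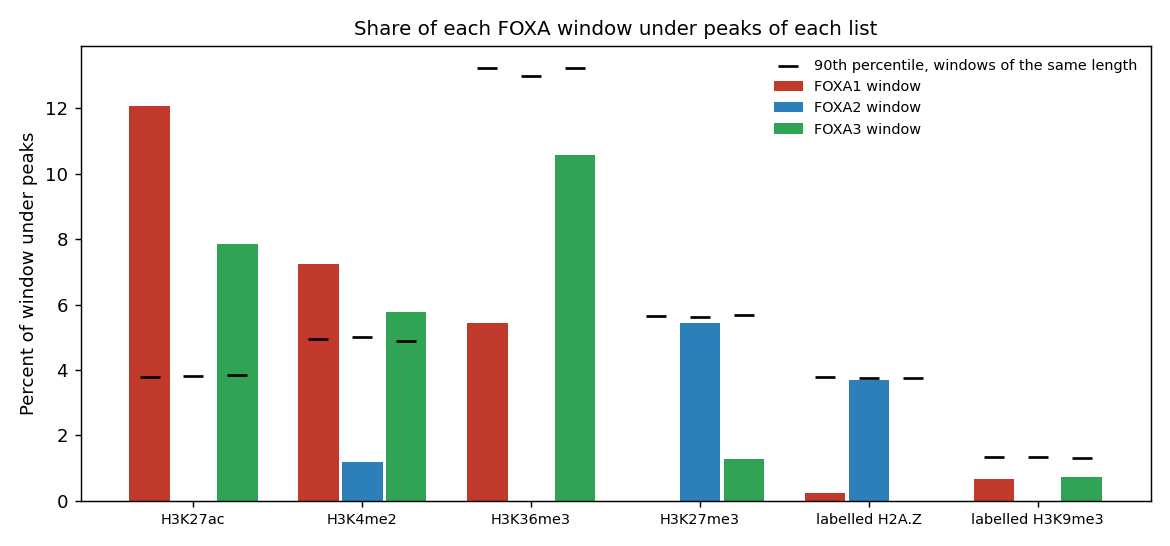
Percent of the FOXA1, FOXA2 and FOXA3 windows under peaks of each list (bars, 1 library each, so no error bars), with the 90th percentile of windows of the same length as a black dash. FOXA1 (12.1%) and FOXA3 (7.85%) lie above the dash for H3K27ac, and both also do for H3K4me2 (7.25% and 5.77%). No other bar reaches its dash. FOXA2 has bars only for H3K4me2, H3K27me3 and the list labelled H2A.Z, all below the dash.

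Set side by side, the windows of FOXA1 and FOXA3 were denser than that of FOXA2 in H3K27ac and H3K4me2 peaks, together called active peaks. H3K4me2 also lies at poised sites, and it made up 22 of these peaks at FOXA1, 15 at FOXA3 and all 3 at FOXA2. A site under both lists was counted once for each list, so these are not counts of active sites. Counting H3K27ac and H3K4me2 peaks together, there were 14.6 per 100 kb at FOXA1 (95% exact Poisson interval 9.85 to 20.8, 30 peaks), 12.9 at FOXA3 (8.49 to 18.7, 27 peaks) and 1.47 at FOXA2 (0.304 to 4.31, 3 peaks). The intervals of FOXA1 and FOXA3 overlapped, and neither overlapped that of FOXA2. Windows of the same lengths tiled along the genome had a median of 1 H3K27ac peak (quartiles 0 to 3) and 3 H3K4me2 peaks (1 to 7). The FOXA2 counts of 0 and 3 lay within these quartiles, and the counts of FOXA1 and FOXA3 lay above them. On the members' own chromosomes the 2 medians were 1 and 5 for FOXA1, 1 and 4 for FOXA2, and 5 and 8 for FOXA3. Among the wider peaks of each list the interval of FOXA2 (0.119 to 3.55) overlapped those of FOXA1 (3.02 to 10.2) and FOXA3 (3.30 to 10.6), and with 10 kb flanks it also did (0.108 to 23.7 at FOXA2). H3K27me3 had 7.37 peaks per 100 kb at FOXA2 (4.13 to 12.2), 1.91 at FOXA3 (0.520 to 4.89) and 0 at FOXA1 (up to 1.79). The intervals of FOXA2 and FOXA1 did not overlap, though they did among wider peaks (1.08 to 6.42 at FOXA2). With 10 kb flanks they also overlapped (1.03 to 30.8 at FOXA2, up to 14.4 at FOXA1). Those of FOXA2 and FOXA3 overlapped. Peaks cluster along the genome, so these intervals are too narrow.

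One contrast between FOXA1 and FOXA3 lay in the position of H3K27ac, and another in width. The widest H3K27ac peak measured 16.9 kb at FOXA1 and 3915 bp at FOXA3, and the shares near FOXA1 come mostly from that single peak. With the gene and 10 kb on each side, H3K27ac covered 68.1% at FOXA1, 10.3% at FOXA3 and none at FOXA2, although FOXA1 had 2 such peaks and FOXA3 had 3. H3K27ac covered 100% of the FOXA1 gene and none of the FOXA3 gene. Upstream the order turned from 20 kb on, with 0% at FOXA1 and 1.67% at FOXA3 from 20 to 50 kb. From 50 to 100 kb upstream the shares were 1.28% and 17.0%. Downstream the order did not turn in these bins, at 18.1% for FOXA1 and 12.6% for FOXA3, then 2.68% and 1.26%. The FOXA1 window covered more of its length with H3K27ac than the FOXA3 window by 4.23 percentage points, which was 15.4 points with 50 kb flanks and 1.16 with 200 kb flanks. For H3K36me3 the difference was -5.16 points, which was -0.00485 with 50 kb flanks and -3.27 with 200 kb flanks. For H3K4me2 the difference was 1.47 points, and its sign turned with a wider window and among wider peaks.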

How the data were processed

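ChIP-seq of 6 antibodies in T-47D was used, with 1 library each. The values are peak starts and ends as the authors deposited them, without height, enrichment or p-value. The submitters' processing notes name the build hg19 and the tools HOMER 4.2 and Bowtie2 2.1.0, with no role for either. How peaks were called, whether the input entered and how deep each library was sequenced is not given in the sources used here. Signal below the authors' threshold therefore leaves no trace in a list.

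Peaks on chromosomes 1 to 22 and X were kept, in 1-based hg19 coordinates. Gene positions and the 100 kb flanks are those of the rule that defined the windows. The strands of FOXA1 and FOXA3 came from RefSeq, and that of FOXA2 from general knowledge. A peak belonged to a window, or 2 peaks overlapped, with at least 1 shared bp. Distances run from the gene start to the nearer peak edge. For background, non-overlapping windows of each member's length were tiled over the genome, leaving out spans of 1 Mb or more without any peak. They describe how common a value is and are not a chance test. Peaks named are those on a member gene or within 5 kb of its start, the nearest of each list and the widest of each list (the 3 widest for FOXA1), with a few others named as parts of an overlap or flank. The planned gene lists and luminal markers were not analysed, since an hg19 annotation was not used here. Overlap and coverage functions were tested on simulated data. The members, lists and settings were chosen with earlier results of these data known. Python 3.11.15, numpy 2.4.6, pandas 2.3.3, scipy 1.17.1 and matplotlib 3.10.9 were used.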

Additional observations from a re-analysis of the deposited data

How the results depend on the processing

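Each mark had 1 library, so no replicate could be left out. No paired analysis was possible because the groups are single libraries of different marks. Windows with 50 kb or 200 kb flanks, peaks merged within 1 kb, only the wider peaks of each list (above its median width), and peaks placed by their centre were tried. Windows with 10 kb flanks were added after seeing the data. Of 36 recalculated densities of active or H3K27me3 peaks, 27 stayed within 1.5 times the reported value and 9 did not. The 27 include those of H3K27me3 at FOXA1, where a count of 0 cannot change in a narrower window or among fewer peaks. Keeping only wider peaks can only lower a density. Among wider peaks the active peaks fell to 5.84 per 100 kb at FOXA1 and 6.20 at FOXA3, and H3K27me3 to 2.95 at FOXA2 and 0.954 at FOXA3. Active peaks at FOXA2 numbered 0.967 per 100 kb with 50 kb flanks and 4.26 with 10 kb flanks, each from 1 peak. H3K27me3 at FOXA3 was 0 with 50 kb flanks, 0 with 10 kb flanks and 1.22 with 200 kb flanks. FOXA2 was below both others in active peaks in each of these settings, but its interval overlapped theirs among wider peaks and with 10 kb flanks. In those same settings the H3K27me3 interval of FOXA2 overlapped that of FOXA1. The H3K4me2 difference between FOXA1 and FOXA3 turned to -0.122 points with 200 kb flanks and -0.328 among wider peaks, and that of the list labelled H3K9me3 from -0.0372 to 0.436 among wider peaks, where the cause was not tested. The other 57 recalculated differences in covered share kept their sign or became 0. When an overlap had to span 50% of the shorter peak, 6 H3K4me2 peaks at FOXA3 overlapped H3K27ac instead of 7, and the counts at FOXA1 and FOXA2 did not change. Taking background windows from the member's own chromosome moved the share that holds a peak by more than 1.5 times in 3 of 18 cases. Depth is unknown, so absences are limited by a threshold that is not known.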

Other observations

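The next 100 kb beyond each window continued these patterns in part. Upstream of FOXA1, H3K36me3 had 16 peaks over 13.7% of the sequence, with the widest at 3084 bp, and H3K27ac had 1 peak. Downstream of FOXA1, beyond the window, the balance was reversed, with 1 H3K36me3 peak against 3 H3K27ac and 5 H3K4me2 peaks. H3K27me3 had no peak on either side of FOXA1.

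Beyond the FOXA2 window the list labelled H2A.Z was lopsided, with 15 peaks over 8.79% upstream and 2 peaks over 1.0% downstream. H3K27me3 had the opposite lean, with 2 peaks upstream and 7 downstream. In this stretch, too, H3K27ac and H3K36me3 had no peak. Beyond the FOXA3 window H3K27ac covered 8.37% upstream and 0.639% downstream, and H3K36me3 covered 15.7% and 1.15%. H3K4me2 was more even, at 6.03% with 9 peaks upstream and 4.47% with 6 peaks downstream.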
